A study of Mus musculus with 4 samples.

Results

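Thymocytes of NOD and B6 mice that both lacked Rag1 were compared at 4 weeks of age, 1 RNA-seq library a side. The pair was chosen by label, and it makes up 2 of the 4 libraries of the series. Of 33114 named genes in each file, 8863 had 5 or more RPKM (reads per kilobase of gene length, adjusted for sequencing depth) in either week 4 library. In 6569 of these, under 10% of the reads mapped to more than 1 place in both libraries, and these genes come first below.

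All 4 libraries came from flow-sorted thymocytes of mice with the genotype Rag1-/-, on the strain backgrounds B6 (C57BL/6) and NOD. The ages were 4 and 7 weeks for B6 and 4 and 6.5 weeks for NOD, so the older libraries differed in age as well as in strain. The labels do not say whether a library came from 1 mouse or a pool, nor which surface markers served for the sort. Rag1 RNA was present in every library (RPKM of 132.9 in B6 and 121.4 in NOD at week 4), and since the deleted part of the gene is not given, its level does not check the knockout.

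Rag1 is a subunit of the recombinase that cuts antigen receptor genes. Without it a thymocyte cannot make a T-cell receptor beta chain and stops at the CD4 CD8 double negative stage. This stop lies after commitment to the T lineage and before beta-selection and the burst of division that follows it. Notch1 signalling drives commitment, Bcl11b and Tcf7 carry it out, and progenitor and innate lymphoid genes are normally shut down as it proceeds. NOD mice are prone to autoimmune diabetes, and Rag1-deficient NOD thymocytes are known to pass this stop with age and to give rise to leukaemia. The week 4 pair precedes the older libraries of both strains.

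The recovered sequencing depth was between 17040000 and 24090000 reads a library, with 17040000 for B6 week 4 and 17260000 for NOD week 4. Between 11841 and 12278 genes had 1 or more RPKM in a library. The libraries differed in their sex-linked RNA. Xist, the RNA that coats the inactive X chromosome of females, had an RPKM of 100.1 in B6 against 20.2 in NOD at week 4, and of 119.8 against 77.9 at the older ages, while 3 Y-linked genes (Ddx3y, Eif2s3y and Uty) were 2-fold higher in NOD than in B6 at week 4. Xist did not pass the filter of under 10% shared reads, unlike these 3 Y-linked genes. Xist and Y-linked RNA were both present in all 4 libraries. The part of sex in the differences below was not tested. With 1 library a group there was no replicate check, no p-value is given, and every interval below covers counting error only.

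Genes of T-lineage commitment had close levels in the 2 strains at week 4, as most genes had. Of 44 genes of T-lineage commitment that were compared, 41 differed by less than 1.5-fold, 25 were lower and 19 higher in NOD, and the median difference was -0.04 on the scale log2(RPKM + 1), NOD less B6. Over all 6569 genes, 3754 (57.1%) were lower in NOD by any amount, and the median was -0.05 with quartiles of -0.21 and 0.13. Among them 6086 differed by less than 1.5-fold, 227 (3.46%) were 1.5-fold higher in NOD and 256 (3.90%) were 1.5-fold lower. The share of commitment genes under 1.5-fold was thus near that of all genes.

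Bcl11b, the transcription factor that closes the progenitor program, had an RPKM of 101.9 in B6 and 98.8 in NOD at week 4. Tcf7, which acts below Notch1 to open T-lineage genes, was at 284.0 and 280.6. Gata3, a factor needed at several steps of T-cell development, was at 20.8 and 23.2. These 3 factors lay within 0.15 of equality on the log2 scale. Il2ra, the surface protein CD25 that marks the double negative stage at which Rag1-deficient cells stop, was at 460.8 in B6 and 491.9 in NOD. It was the only 1 of 6 stage markers compared that was higher in NOD. The other 5 were lower, beside 57.1% of all genes compared, and the median of the 6 was -0.23. Ptcra, which encodes the pre-T alpha chain of the pre-T-cell receptor, was at 279.1 and 317.7. Cd3e, a signalling chain of that receptor, was at 314.4 and 319.7. Cd4 (1.25 and 1.46) and Cd8a (0.06 and 0.05, on shared reads), the coreceptors of later thymocytes, were low in both.

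The exceptions in the commitment list were Lef1, Ubash3a and Runx3. Lef1, a DNA-binding partner of beta-catenin related to Tcf7, had an RPKM of 62.0 in B6 against 107.9 in NOD at week 4, and of 40.1 against 89.9 at the older ages, so both NOD libraries lay above both B6 libraries. The week 4 ratio of NOD to B6 was 1.74 (95% interval 1.66 to 1.82). Ubash3a, a phosphatase-family inhibitor of T-cell receptor signalling, was lower in NOD (21.6 in B6, 10 in NOD), with a ratio of 0.463 (0.412 to 0.519). Runx3, a factor of the CD8 and innate lineages, was at 12.5 and 7.36. The older B6 and NOD libraries were at 13.4 and 12.4 for Ubash3a and at 6.80 and 9.68 for Runx3, so the strains were not set apart at both ages by either gene.

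**Figure D1:**
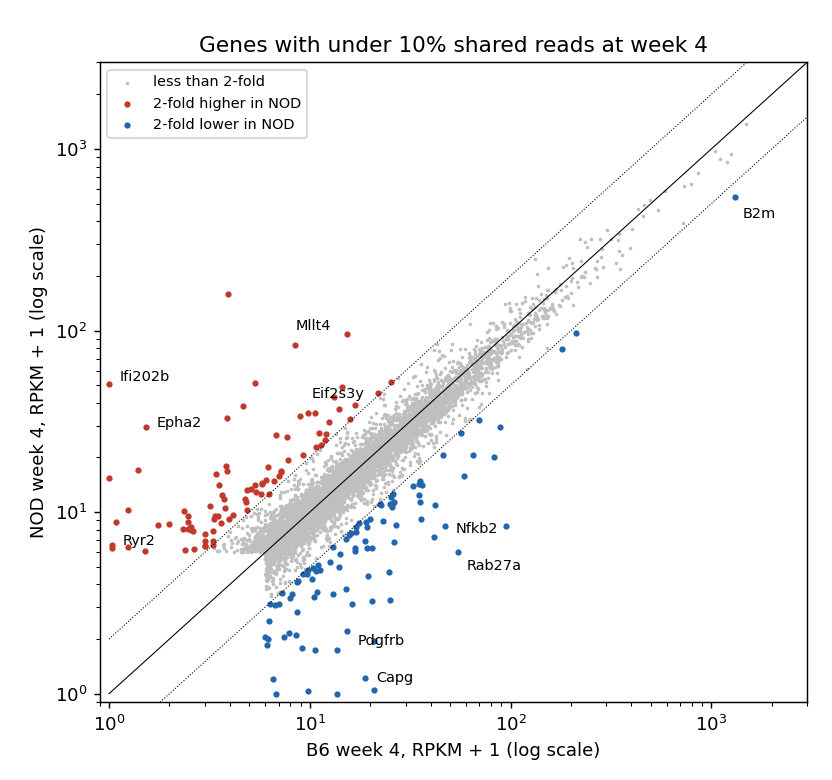
RPKM + 1 of the 6569 genes with under 10% shared reads in the B6 week 4 library (x axis) and the NOD week 4 library (y axis), both on log scales, 1 point a gene. The solid line marks equal values and the dotted lines a 2-fold difference; 86 genes (red) lie above and 95 genes (blue) below.

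Notch genes were split. The receptors Notch1 (252.1 in B6, 316.8 in NOD) and Notch3 (136.5 and 174.0), and the target Dtx1 (113.3 and 140.1), were higher in NOD by between 0.30 and 0.35 on the log2 scale. The target Hes1, a repressor, was at 86.7 and 70.3. Over the 19 members compared the median was -0.03, with 12 lower and 7 higher in NOD. The 3 members past 1.5-fold were all lower in NOD. Dtx4, a ubiquitin ligase related to Dtx1, had an RPKM of 5.54 in B6 week 4 and 0.20 in NOD week 4, and it was also low in NOD week 6.5 (0.41) beside B6 week 7 (5.92). Nrarp, an ankyrin-repeat feedback inhibitor that Notch itself induces, was at 7.0 in B6 and 2.38 in NOD, a ratio of 0.340 (0.270 to 0.425), and at 4.03 and 4.17 at the later ages. Mfng, a glycosyltransferase that modifies Notch receptors, was at 22.0 and 14.2.

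Most genes of the cell cycle lists were lower in NOD at week 4, by small amounts. Of 54 genes of mitosis compared, 49 were lower in NOD and the median was -0.37. Of 51 genes of DNA replication, 46 were lower and the median was -0.25. Few single genes were far apart: 8 mitosis genes and 2 replication genes were 1.5-fold lower, and none of either list was 1.5-fold higher. Over all 6569 genes, 57.1% were lower by any amount, 3.90% were 1.5-fold lower and 3.46% 1.5-fold higher. The count of replication genes 1.5-fold lower was near that share of all genes. In bulk RNA, fewer dividing cells and less of the cell cycle transcripts in each dividing cell cannot be told apart.

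Mitosis genes are transcribed in G2 from promoters that often carry a cell cycle homology region (CHR, TTTGAA) beside CCAAT boxes, and replication genes in late G1 and S from promoters with E2F sites. The windows of 250 bases upstream of the start of transcription are shown for 1 replication gene and 3 mitosis genes because these are list members whose windows hold the words searched. They are from RefSeq, build GRCm38.p6, in the gene's direction, 5′ to 3′, and the coordinates are of that build. In Mcm5 the capitals mark the E2F words (2 that overlap), and in the others they mark TTTGAA and CCAAT on either strand, so that TTCAAA and ATTGG are their reverse complements.
Mcm5, chr8:75109259-75109508, plus strand: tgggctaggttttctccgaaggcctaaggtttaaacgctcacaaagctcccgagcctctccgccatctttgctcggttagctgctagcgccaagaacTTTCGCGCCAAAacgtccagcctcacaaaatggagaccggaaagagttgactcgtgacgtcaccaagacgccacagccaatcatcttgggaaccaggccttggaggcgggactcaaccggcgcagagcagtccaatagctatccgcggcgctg
Ccnb2, chr9:70421555-70421804, minus strand: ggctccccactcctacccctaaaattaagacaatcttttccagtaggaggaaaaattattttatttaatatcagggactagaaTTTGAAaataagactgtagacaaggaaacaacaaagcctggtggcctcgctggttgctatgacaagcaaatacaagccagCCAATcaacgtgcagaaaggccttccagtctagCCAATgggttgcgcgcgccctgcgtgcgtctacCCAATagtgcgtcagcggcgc
Kif11, chr19:37376132-37376381, plus strand: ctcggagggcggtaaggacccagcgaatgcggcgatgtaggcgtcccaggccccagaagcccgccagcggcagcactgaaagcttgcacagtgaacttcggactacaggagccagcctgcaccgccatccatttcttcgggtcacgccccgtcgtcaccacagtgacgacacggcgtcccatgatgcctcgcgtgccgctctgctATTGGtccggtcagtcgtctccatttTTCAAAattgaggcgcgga
Ncapd2, chr6:125191587-125191836, minus strand: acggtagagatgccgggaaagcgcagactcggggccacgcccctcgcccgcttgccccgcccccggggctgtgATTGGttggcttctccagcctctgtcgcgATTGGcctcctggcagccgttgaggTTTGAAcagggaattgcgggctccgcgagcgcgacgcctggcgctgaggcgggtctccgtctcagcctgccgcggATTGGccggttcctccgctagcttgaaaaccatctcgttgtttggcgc

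Both strands of these windows were searched in every gene with an entry in the table. TTTGAA was found in 40.9% of 44 mitosis promoters, in 9.8% of the 5275 promoters of all genes compared and in 16.3% of all 27025 promoters of the table. CCAAT was found in 63.6% of the mitosis promoters and in 36.3% of those of all genes compared (34.5% of the table), and 2 or more CCAAT in 38.6% and 14.2%. An E2F word (TTTCCCGC, TTTGGCGC, TTTCGCGC or TTTGCCGC) was found in 8 of 40 replication promoters, against 4.1% of the genes compared and 1.9% of the table. The words were not confined to 1 list. CCAAT was also found in 60.0% of the replication promoters, 57.1% of the immediate early and 23.1% of the commitment promoters. TTTGAA was found in 22.5%, 9.5% and 17.9% of the same 3 sets. E2F words were found in 11.4% of the mitosis promoters and in 0.0% of the immediate early and commitment promoters. The E2F words share letters and may overlap, as in Mcm5, and each kind of word was counted on its own. A word in a window is a description of the sequence and no evidence of a bound factor.

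Among the mitosis genes, the condensin subunit Ncapd2, which compacts chromosomes, had an RPKM of 55.7 in B6 against 26.2 in NOD at week 4, and of 21.2 against 27.5 at the older ages. The B6 week 4 library was the high one, and the other 3 lay between 21.2 and 27.5. The week 4 ratio was 0.471 (0.447 to 0.497). Cdca3, a trigger of mitotic entry, was also highest in that library, with 25.1 in B6 week 4 and between 11.5 and 12.3 in the other libraries. Kif11, the motor that pushes spindle poles apart, was at 21.3 in B6 and 10.8 in NOD at week 4, a ratio of 0.504 (0.464 to 0.546), and at 13.6 and 13.2 later. The remaining 5 past 1.5-fold were cyclins Ccnb2 (35.4 and 22.3) and Ccnf (11.2 and 6.85), the spindle assembly factor Tpx2 (20.4 and 12.9), the centromeric histone Cenpa (24.7 and 15.9) and the kinetochore subunit Spc25 (12.2 and 7.38).

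All 4 role groups of the mitosis list had medians between -0.29 (spindle motors and microtubule proteins, 18 genes) and -0.43 (chromosome structure and anaphase, 13 genes). Top2a, the topoisomerase that untangles sister chromatids, was at 70.1 and 51.6, and the kinase Cdk1 at 13.2 and 10.6. Ccnb1, Plk1 and Mki67 differed by -0.28, -0.40 and -0.47 on the log2 scale, with up to 75%, 17% and 30% of their reads shared.

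In the replication list, origin licensing genes had a median of -0.32 over 16 genes and polymerase and fork genes -0.21 over 20. Mcm5, a subunit of the replicative helicase, was at 69.5 in B6 and 55.1 in NOD at week 4, and at 25.2 and 64.1 later, so B6 week 7 was the low library there. The 2 genes 1.5-fold lower at week 4 were Dbf4 (11.5 and 7.0), the activator of the kinase that fires origins, and Gins2 (23.8 and 15.3), a helicase cofactor. E2f1 (12.6 and 10.7) and Ccne2 (5.79 and 3.70), regulators of S-phase entry, differed by -0.22 and -0.53 on the log2 scale. Pcna, the sliding clamp, was at 230.7 and 150.1, with up to 66% of its reads shared.

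**Figure D2:**
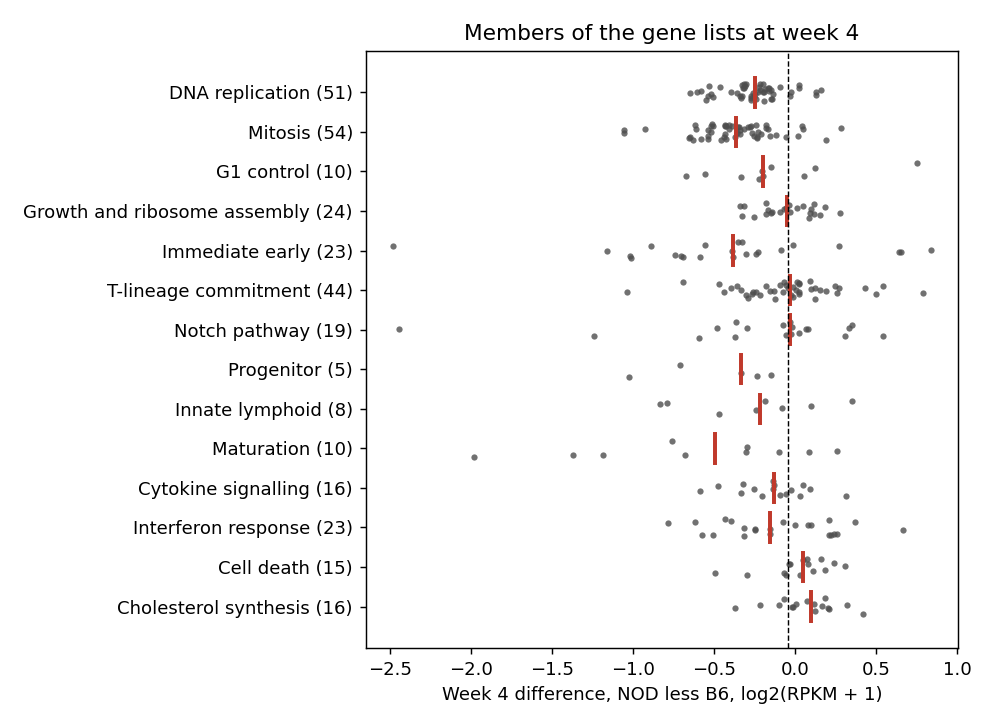
Difference at week 4, NOD less B6 in log2(RPKM + 1) on the x axis, for each compared member (grey points) of 14 gene lists (rows, number of members in brackets), with the list median as a red bar. The dashed line is the median of all 6569 genes at -0.05; the medians of Mitosis, Immediate early and Maturation lie at -0.37, -0.38 and -0.49.

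Cell cycle inhibitors did not move as 1 group. Cdkn1a, the p21 inhibitor and a p53 target, had an RPKM of 32.3 in B6 and 55.1 in NOD at week 4, a ratio of 1.70 (1.58 to 1.84), and 19.0 and 31.9 later. Cdkn2c, the p18 inhibitor of cyclin D kinases, was at 5.04 and 2.78, and Cdkn1b (p27) at 15.5 and 16.1. None of 7 other p53 targets compared differed 1.5-fold, nor did any of 8 Bcl2 family genes. Genes of growth and ribosome assembly were close between the strains, with a median of -0.05 and none of 24 past 1.5-fold. Of all 6569 genes, 6086 were also under 1.5-fold. Myc, which drives growth of dividing thymocytes, was at 76.0 and 80.7.

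The levels of these lists in the 4 libraries were set beside each other. Without a replicate at any strain and age, these levels cannot say which library carried the week 4 difference. These values share the week 4 libraries with the comparison and are given as a description. B6 week 4 was the highest of the 4 in 48 of 54 mitosis genes and 29 of 51 replication genes, as it was in 2980 of all 6569 genes. B6 week 7 was the lowest in 45 of the mitosis genes, 46 of the replication genes and 4624 of all genes. Taking out the median of all genes in each library, mitosis genes stood at 0.23 in B6 and -0.10 in NOD at week 4 on the log2 scale, and at -0.13 and 0.01 at the older ages. Replication genes stood at 0.15 and -0.04 at week 4, and at -0.26 and 0.19 later. NOD week 4 was thus below B6 week 4 and above B6 week 7 in both.

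**Figure D3:**
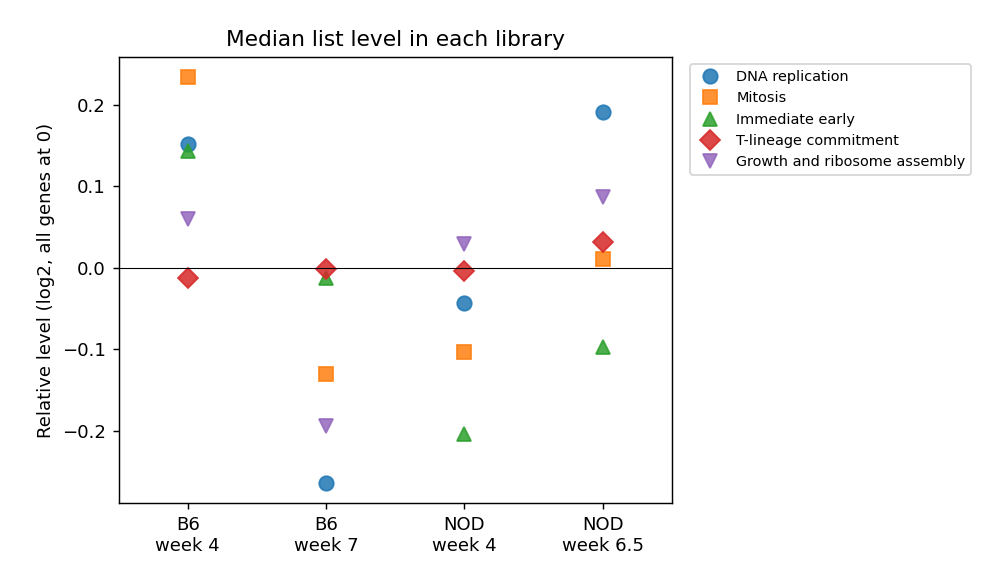
Median level of 5 gene lists in each library (x axis), as log2(RPKM + 1) less the mean of each gene over the 4 libraries, with the median of all genes compared set to 0 (y axis). Mitosis genes lie at 0.23 in B6 week 4 and -0.10 in NOD week 4, and commitment genes lie near 0 in all 4 libraries.

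Immediate early and signal-response genes, which cells induce soon after a stimulus, were mostly lower in NOD. Of 23 compared, 19 were lower, 9 of them 1.5-fold and 4 of them 2-fold, while 3 were 1.5-fold higher, and the median was -0.38. Among all genes 57.1% were lower by any amount, 227 (3.46%) were 1.5-fold higher and 256 (3.90%) 1.5-fold lower. At 2-fold, 86 (1.31%) were higher and 95 (1.45%) lower. The 42 listed genes outside the comparison were below 5 RPKM or had shared reads, among them all 9 Egr and Nr4a genes.

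The AP-1 genes Jund, Junb and Batf, whose proteins pair into transcription factors at the end of growth factor and T-cell receptor signalling, were each 2-fold lower. Jund had an RPKM of 45.2 in B6 week 4 and 19.6 in NOD week 4, and 19.9 and 20.4 later. Junb was at 12.1 in B6 week 4, against 5.46, 4.76 and 4.10 in NOD week 4, B6 week 7 and NOD week 6.5. As with Ncapd2, B6 week 4 was the single high library for both. Fos, below the filter, was at 3.53 in B6 week 4 and 0.67 in NOD week 4, a ratio of 0.190 (0.116 to 0.293), and at 0.76 and 0.24 later. Egr1, a zinc-finger factor induced by the same signals, was at 2.52 and 0.21, a ratio of 0.0833 (0.0401 to 0.152), and at 1.33 and 0.24 later. Jun was at 16.7 and 12.5, and Nr4a1 was under 0.3 RPKM in both.

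Nfkb2, which encodes the p100 and p52 subunits of NF-kappaB, differed between the strains at both ages. It had an RPKM of 46.2 in B6 week 4 and 7.44 in NOD week 4, a ratio of 0.161 (0.145 to 0.179), and 23.7 against 5.75 at the older ages. Both NOD libraries lay below both B6 libraries. Its partner gene Nfkb1 was at 31.6 and 26.5 at week 4. The other members 1.5-fold lower at week 4 were the factors Ier2 (5.41 and 2.46) and Klf6 (7.69 and 4.79), the phosphatase Dusp2 (32.01 and 19.4), and the signalling inhibitors Spred1 (5.27 and 2.84) and Socs3 (30.5 and 17.9).

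The higher members did not follow this pattern. Dusp1, a phosphatase that switches off MAP kinases, had an RPKM of 6.17 in B6 and 11.8 in NOD at week 4, and 2.68 and 8.41 later. Dusp10 was at 4.17 and 7.05 at week 4, and at 2.54 and 6.74 later. Both phosphatases were thus higher in both NOD libraries than in both B6 libraries. Hsph1, a heat shock protein, was at 11.3 and 18.3. Dusp6, a target of ERK signalling, was under 1 RPKM at week 4 in both strains.

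**Figure D4:**
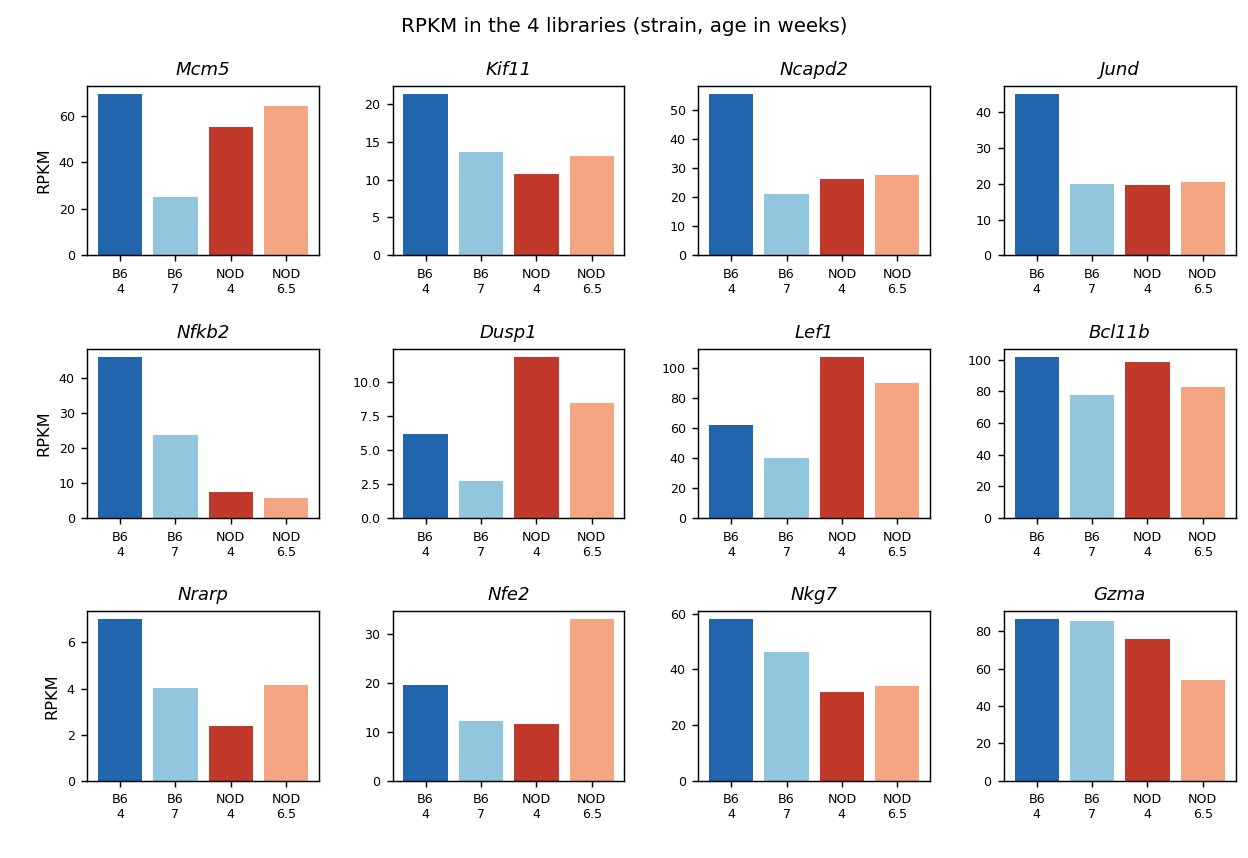
RPKM of 12 genes (y axes, each from 0, scales differ between panels) in the 4 libraries (x axis, strain and age in weeks), 1 bar a library and no error bars, since each strain and age has 1 library. Ncapd2 and Jund are high only in B6 week 4, Nfkb2 is low and Lef1 high in both NOD libraries, and Bcl11b lies between 77.4 and 101.9 in all 4.

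Most progenitor genes were low in both strains at week 4. Of 28 matched, 16 were under 1 RPKM in both libraries and 5 could be compared. These 5 were lower in NOD, with a median of -0.34, beside 57.1% of all genes compared. With no filter on low values, 15 of 25 progenitor genes were lower and the median was -0.04. Nfe2, a factor of megakaryocyte and erythroid progenitors, had an RPKM of 19.5 in B6 against 11.5 in NOD at week 4, and of 12.2 against 33.0 at the older ages. Cd93, a surface protein of early progenitors, was at 8.85 and 3.83 at week 4. Kit, the stem cell factor receptor, was at 7.62 and 6.33, and at 4.25 and 19.4 later.

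Of the progenitor factors below the filter, Lyl1 was at 3.84 in B6 and 0.90 in NOD at week 4, a ratio of 0.234 (0.149 to 0.356), and at 1.47 and 8.39 later. Lmo2, a partner of such factors in leukaemic T cells, was at 0.31 and 0.44, where counting error spans equality, and at 0.11 and 5.0 later. Spi1 (PU.1), which is shut off at commitment, was at 1.23 and 0.30. None of these 3 was above its B6 value at week 4 by more than counting error.

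Most innate lymphoid genes were low in both strains. Of 51 matched, 36 were under 1 RPKM in both week 4 libraries, and the summed RPKM of the list was 259.2 in B6 and 216.1 in NOD. The granule protease Gzma (86.4 and 75.8) and the granule membrane gene Nkg7 (58.0 and 32.1) were among its highest members, with the cytokine receptor Il17rb (42.1 and 53.9). Nkg7 and the adaptor Hcst (11.4 and 6.16) were 1.5-fold lower in NOD. The regulators Zbtb16 (0.03 and 0.27) and Tbx21 (0.12 and 0.33), the receptor Il2rb (0.38 and 0.46) and the protease Gzmb (0.41 and 0.41) were all below 0.5. Gzmb was at 0.53 in B6 week 7 and 7.67 in NOD week 6.5. Zbtb16, which directs innate-like T cells, had a ratio of 9.0 (2.40 to 41.0) on very few reads.

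Of 4 gamma-delta T-cell genes compared, Blk (3.58 and 7.18) and Cd163l1 (6.71 and 12.02) were 1.5-fold higher in NOD, and Sox13 (24.4 and 11.1) was 2-fold lower. In NOD week 6.5 Cd163l1, a scavenger receptor of gamma-delta cells, was at 68.3 with 7.11 in B6 week 7. Genes of later thymocyte maturation were lower in NOD in 8 of 10, with a median of -0.49, beside 57.1% of all genes compared. With no filter on low values, 12 of 19 maturation genes were lower and the median was -0.10. Ctla4, an inhibitory receptor, was at 35.0 and 8.13 at week 4 and at 44.8 and 4.05 later, and Mns1 and Aqp11 were 2-fold lower at week 4 as well (22.1 and 7.92, and 179.3 and 78.4). Plac8 and Cd53 were 1.5-fold lower.

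Most markers of other cell types were under 1 RPKM in both week 4 libraries. These were 12 of 17 B-cell, 16 of 22 myeloid and dendritic, 7 of 10 erythroid and 14 of 19 stromal and epithelial markers. All markers that could be compared were lower in NOD, beside 57.1% of all genes compared. These were 3 of B cells, 1 myeloid and 3 of stroma and epithelium. Their medians were -0.37, -1.63 and -0.34, and no erythroid marker could be compared. Pax5 and Ms4a1 (B cells), Csf1r, Csf3r and Cd14 (myeloid cells), and Foxn1, Krt5 and Col1a1 (stroma) were each at or below 0.13 RPKM in both week 4 libraries. Summed RPKM at week 4 was 120.1 in B6 and 85.8 in NOD for 17 B-cell markers, and 39.3 and 34.6 for 22 myeloid and dendritic markers. For 10 erythroid markers it was 46.5 and 47.6, and for 19 markers of stroma and epithelium 75.3 and 50.0. Within these, Ighm RNA was at 33.8 and 11.4, H2-Ab1 at 5.16 and 0.99 and Pdgfrb at 14.3 and 1.22. The neutrophil genes S100a8 (2.24 and 0.59) and S100a9 (1.80 and 0.12) were below the filter. Their part in the results above was not tested.

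Interferon response genes had a median of -0.15 over 23 genes, with Gbp2 (19.3 and 10.8) and Ifit1 (5.03 and 2.92) 1.5-fold lower in NOD and Ifi27l2a (3.85 and 6.69) 1.5-fold higher. Of 16 cytokine receptors and kinases compared, only Stat4 (15.8 and 10.2) was past 1.5-fold, where 6086 of all 6569 genes were under it. None of 16 cholesterol synthesis genes was past it, and their median was 0.09. Of 10 homing and adhesion genes, only the laminin receptor subunit Itga6 passed 2-fold, with an RPKM of 11.5 in B6 and 30.2 in NOD and 8.28 and 26.2 later. B2m, the light chain of MHC class I, was 2-fold lower in NOD at both ages (1319 and 545.1 at week 4, 1461 and 612.2 later).

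The genes farthest apart were not those of the cell cycle or of stage. Ifi202b, an interferon-inducible DNA-binding protein, had an RPKM of 49.6 in NOD and 0 in B6 at week 4. Against a floor of 3 reads in B6, it was at least 540.4-fold higher. Epha2, an ephrin receptor kinase, was at 28.4 in NOD and 0.52 in B6, and Esr2, oestrogen receptor beta, at 16.1 and 0.40. The calcium release channel Ryr2 was at 5.55 and 0.03, and the junction adaptor Mllt4 (afadin) at 82.4 and 7.49. The remaining 10 of the 15 highest were 2300002M23Rik, LOC675325, Rasa4, A830041P22Rik, AA467197, LOC100040747, Tcte2, Rps6kl1, Tmem98 and BC020535, with log2 differences between 2.37 and 5.34.

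On the lower side AA407270 (Myzap) had an RPKM of 19.9 in B6 and 0.05 in NOD, 398-fold lower with a counting interval of 108 to 3238. Capg, an actin-capping protein, was at 17.9 and 0.22, Rab27a, a regulator of granule release, at 53.6 and 5.01, and Camk2a, a calmodulin-dependent kinase, at 19.98 and 0.95. The peptide transporter Slc15a2 was at 5.78 in B6 and 0 in NOD (at least 132.7-fold lower), and 2610035D17Rik at 12.7 and 0 (at least 111.8-fold). Pdgfrb and Nfkb2, described above, were among the 15 lowest, which also held A930013B10Rik, Eps8l1, Art4, Gm525, Emb, Rab6b and Gsr. Of these 30 genes, 29 were 2-fold apart in the same direction in NOD week 6.5 against B6 week 7. Pdgfrb was the exception, with 7.89 and 6.33.

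The later pair shares no library with the week 4 pair, and its values can be set against it. Of the 86 genes 2-fold higher in NOD at week 4, 68 (79.1%) were also 2-fold higher in NOD week 6.5 than in B6 week 7, where 298 genes of the 6569 were, so the 68 make up 22.8% of the later list. Of the 95 genes 2-fold lower, 50 (52.6%) were 2-fold lower later, where 67 genes were, which is 74.6% of the later list. Of the genes not 2-fold apart that way at week 4, 3.55% were 2-fold higher later and 0.26% were 2-fold lower. The median later difference of all genes was 0.31, and it was not taken out. Left in, it raises the later counts of higher genes and reduces those of lower genes.

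A further 30 of the 95 lower genes were under 1.5-fold apart later, with the later median of 0.31 over all genes left in. In 20 of these 30, B6 week 4 was 1.5-fold above each of the other 3 libraries, and in 8, NOD week 4 was 1.5-fold below each. The rule that picked the 30 favours a week 4 library standing apart. No library level was taken out, and B6 week 7 was the lowest library in 4624 of all 6569 genes. The split thus cannot say which library changed. Ncapd2, Cdca3, Jund, Junb, Batf, Ubash3a, Nrarp, Cd93, Sox13, Ighm and Pdgfrb were among the 30. Of the 86 higher genes, 9 were under 1.5-fold apart later, 3 of them the Y-linked genes. Neither week 4 library has a replicate against which these counts could be set.

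**Figure D5:**
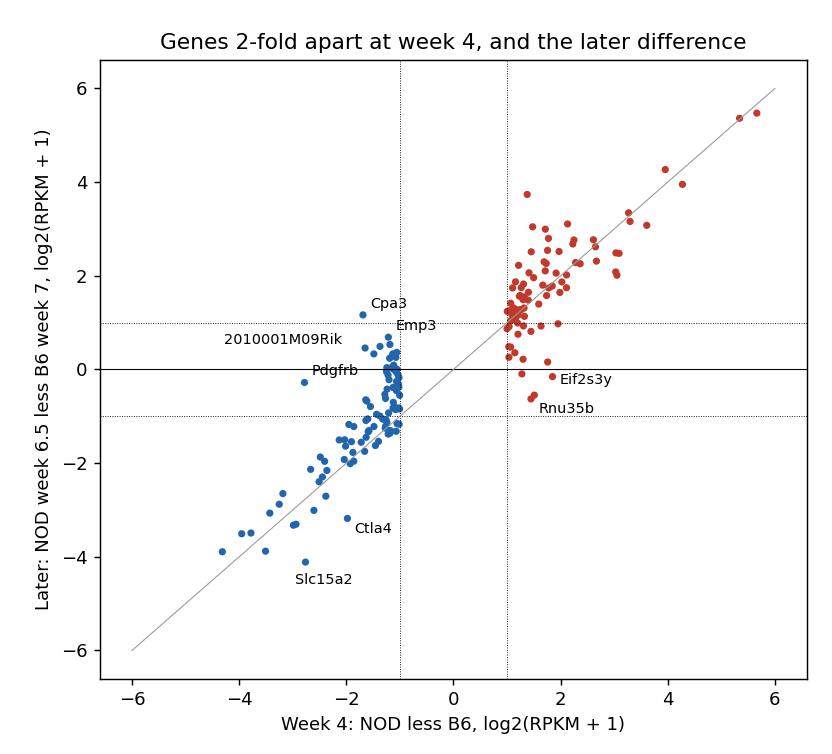
Difference at week 4 (x axis) and at the later ages, NOD week 6.5 less B6 week 7 (y axis), in log2(RPKM + 1), for the 181 genes 2-fold apart at week 4, with dotted lines at 2-fold and the diagonal in grey. Genes at the far left and right lie near the diagonal, while 30 of the genes on the left, with Pdgfrb at -2.78, lie under 1.5-fold later. The median of all genes was not taken out of these values.

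With genes of 10% or more shared reads included, 198 of 8863 genes (2.23%) were 2-fold higher in NOD and 181 (2.04%) were 2-fold lower at week 4. The 20 genes with the largest differences among those with shared reads had between 40% and 100% of their reads shared at most, and they included the MHC class I genes H2-T3, H2-Bl and H2-T10 (higher in NOD) and the ribosomal protein genes Rps18, Rpl35a and Rpl29 (lower in NOD). Their values depend on how reads were divided among copies and are not read as gene differences here.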

How the data were processed

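RNA was polyA-selected, fragmented and sequenced on a Genome Analyzer II, per the labels' protocols, with no strand-specific step named. Reads of 32 bases (from the names of the deposited files) were aligned with Bowtie 0.12.1 to mm9, the C57BL/6 sequence, per the submitters' processing notes. No source used here names the counting program. Per the file headers, the authors deposited for each gene an RPKM value, the gene length in kilobases and, as a fraction, how many of its reads were placed more than once. NOD reads were thus placed on the B6 sequence, and the effect on single genes was not measured.

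The RPKM columns of the 4 libraries were joined by gene identifier, and rows of unnamed regions were left out. Values were compared as log2(RPKM + 1), among genes with 5 or more RPKM in either week 4 library, first those with a fraction of shared reads under 10% in both. Current symbols came from a RefSeq table (GRCm38.p6) for 27627 genes, and 682 of 694 list entries matched. Depth was recovered from the steps between RPKM values of genes up to 0.6 kb, at which between 97.9% and 100% of the values came within 0.1 of whole reads. Exact (Clopper-Pearson) 95% intervals of ratios were computed from the recovered reads, which are amplified and not independent molecules, and a floor of 3 reads per library was used for values of 0. The calculation was run on simulated reads with planted changes and counting error only. That run held no variation between animals and no shared reads, so it checks the calculation and not the strain comparison. A count test was not made, since each group has 1 library.

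The members and lists were chosen with earlier results of these data known. Named genes were the 15 highest and 15 lowest log2 differences, list members past 1.5-fold (the 8 largest where more passed), and fixed defining genes. Rag1, Notch3, Cdkn1b, Nfkb1, Il17rb, Dusp2, Dusp10, Hsph1, Klf6, Xist, S100a8, S100a9 and the genes with shared reads were named after their values were seen. Current symbols are printed for Cdk1 (Cdc2a in the files), Gins2 (4833427B12Rik), Jund (Jund1), Hsph1 (Hsp110), Ighm (Igh-6), Spi1 (Sfpi1), Cd163l1 (E430002D04Rik) and Ifi27l2a (Ifi27). Python 3.11.15, numpy 2.4.6, pandas 2.3.3, scipy 1.17.1, statsmodels 0.14.6 and matplotlib 3.10.9 were used.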

Additional observations from a re-analysis of the deposited data

Results flagged for a closer look

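The strain difference pointed 1 way at week 4 and the other way at the older ages (NOD week 6.5 less B6 week 7) in the following results. The difference between the 2 ages was not tested, since each strain and age has 1 library. All values are differences in log2(RPKM + 1), the first at week 4 and the second at the older ages. Relative to the median of all genes, the DNA replication list was at -0.20 and then 0.40, and the mitosis list at -0.32 and then 0.0786.

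Of 256 genes 1.5-fold lower in NOD at week 4, 9 were 1.5-fold higher in NOD later. The median of all genes, -0.05 at week 4 and 0.31 at the older ages, was not taken out of these gene values. The later values of Emp3, Plcg2, Sh2d3c, Ccnf, Gins2 and Nenf pass 1.5-fold only with it left in. Those of Cpa3, Nfe2 and LOC100043426 pass it either way. Cpa3, a mast cell and progenitor protease, was at -1.69 and 1.16, with an RPKM of 19.4 in B6 and 5.34 in NOD at week 4 and of 18.9 and 43.6 later. Nfe2 was at -0.71 and 1.36, and Emp3, a small membrane protein, at -1.21 and 0.69. The same was found for the signalling genes Plcg2 (-0.72 and 0.72) and Sh2d3c (-0.73 and 0.62). The cell cycle genes were Ccnf (-0.63 and 0.63) and Gins2, listed as 4833427B12Rik (-0.60 and 0.59). Nenf was at -0.62 and 0.70, and LOC100043426 at -0.64 and 0.96.

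Of 227 genes 1.5-fold higher at week 4, 2 were 1.5-fold lower later: LOC100043601 at 0.85 and -0.87, and the small nucleolar RNA gene Rnu35b at 1.45 and -0.63, the latter on 14 reads in NOD and 4 in B6 at week 4.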

How the results depend on the processing

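The 2-fold counts, 86 higher and 95 lower in NOD, moved with the filter and the pseudocount. They were 37 and 49 with a pseudocount of 5, 155 and 151 with a filter of RPKM 1 and also with no filter, 26 and 35 with a filter of RPKM 20, and 198 and 181 with all genes, shared reads included. The medians of the DNA replication and mitosis lists stayed below 0 in all 11 alternatives. A pseudocount of 5 brought the mitosis median to -0.26. Removing a trend on gene length left -0.34 for mitosis and -0.19 for replication, where genes under 1 kb had a median of -0.18 and genes over 4 kb of -0.0041.

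The commitment median, near 0, changed sign with median-centred ratios (0.0114), quantile normalization (0.12), and with a trend on level (0.048) or on length (0.0037) removed. The Notch median changed sign with centring (0.0174) and with a filter of RPKM 20 (0.0702). The interferon median changed sign with a filter of RPKM 20 (0.0808) and was -0.0047 with shared reads under 1%. Immediate early genes had a median of -0.56 with a filter of RPKM 20. The maturation median was -0.30 with a filter of RPKM 1, -0.68 with RPKM 20, -0.10 with none and -0.35 with quantile normalization. The innate lymphoid median was -0.47 with a filter of RPKM 1 and -0.0321 with none, and the progenitor median was -0.0368 with none. The cause of these moves was not tested, beyond the filters changing which genes are counted. Of 1100 values of 100 named genes under these alternatives, 914 lay within 0.1 of the value reported, and none past 1.5-fold changed sign.

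No paired analysis was possible because each strain and age has 1 library. With 1 library a side, strain, sex of the animals, cell sorting and library preparation cannot be told apart, and leaving out a replicate does not apply. Depth limits genes under about 1 RPKM, such as Zbtb16 and Lmo2.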
